A study of Caenorhabditis elegans with 7 samples.

Results

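The genes described here encode F-box, MATH and BTB proteins, the families that pick targets for ubiquitin ligases. They are the rows of the authors' deposited value table whose supplied annotation gives a single gene symbol that starts with fbxa-, fbxb-, fbxc-, math-, bath-, btb- or skr-. Of the 1290 rows of the table, 961 have a single symbol, and 29 of these are members: 12 fbxa, 10 fbxb, 3 bath, 3 btb and 1 math gene. No row carries an fbxc or skr symbol. The gene table of WBcel235 lists 431 protein-coding genes under the same prefixes, so the 29 are a small part of the families. Of the 29 members, 27 matched a single spot of the array files and were tested.

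In an SCF ubiquitin ligase, the cullin CUL-1 is joined to an F-box protein through a Skp1-related linker, which the skr genes encode in the worm. The F-box protein holds the substrate. In CUL-3 ligases a BTB protein does both jobs, since its BTB domain binds the cullin and a second domain, often MATH, holds the substrate. C. elegans has very large families of such genes, many of them in clusters, and most have no known substrate.

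The study measured total RNA of whole C. elegans larvae at the first larval stage (L1), 4 samples of an ahr-mutant strain and 3 of the wild type, N2. The mutant is labelled as having a nonfunctional ahr gene, which encodes the worm counterpart of the aryl hydrocarbon receptor, and no allele is named in the sources used here. In both strains eggs were collected, hatched on plates with E. coli and liquid, and grown to L1. Each sample was labelled with Cy3 and read on 1 spotted array in 1 colour, and only the mutant titles speak of biological samples, so the p-values below measure the spread between these samples, which may be technical for the wild type.

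Each array had 23232 spots, of which 21942 to 22593 had a positive signal. ahr-mutant replicate 1 was deposited with its spots in a different sequence, with rank correlations of -0.0117 to 0.0354 to the other arrays. Once 90.8% of its spots had been put back in the common order, the correlations were 0.68 to 0.81, against 0.632 to 0.804 among the other 6 arrays. Of 8 members for which exact table values fix the position on replicate 1, 7 were placed, all at that position. All 8 had higher means in the mutants, so members with lower means were not checked in this way. Results are given with this array unless its absence is stated. Of 7 marker lists for tissues and stages, 3 had a named row (hypodermis, germline and sperm, touch receptor neurons), and none of the neuronal, muscle, intestine or yolk markers had a named row, so the larvae could not be checked against those markers. All 14 marker spots that could be tested missed the adjusted threshold, 8 with higher and 6 with lower means in the mutants, and 12 of them had an unadjusted p under 0.05. All are rows of the deposited table, where that share was 63.1% over the named spots that are not members, against 7.51% over all spots, and the count is not read as a difference in tissues.

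Of the 27 tested members, 11 were higher on average in the ahr mutants than in the wild type, and 16 were lower. The log2 difference (ahr-mutant minus wild type, on normalized log2 intensity) ran between 2.04 for fbxa-130 and -1.61 for fbxb-98, with a median of -0.45 over the members, -0.52 over the 754 other named table spots and 0.02 over all 22515 spots tested. None of the 27 passed limma's Benjamini-Hochberg threshold of 0.05 over all spots, where 2 spots, 0.00888%, did, and the lowest adjusted p of a member was 0.221. An unadjusted p under 0.05 was found for 19 of the 27, 10 higher and 9 lower. This count was 7 without wild type replicate 2, 10 without ahr-mutant replicate 3, 11 without ahr-mutant replicate 2 or 4, and 14 without ahr-mutant replicate 1. The share of all spots below that p was 7.51%, with 4.06% higher and 3.45% lower in the mutants. The ratios of the deposited table come from these same 7 arrays and how its rows were chosen is not stated. An unadjusted p under 0.05 was found for 70.4% of the members, against 476 of the 754 other named table spots (63.1%). The members' count therefore describes the table that they come from, and is not independent evidence of a strain difference. From the ratios of the authors' deposited table, 25 of the 29 members had an unadjusted p under 0.05, and 87.1% of all table rows did. Because whole larvae were measured, fewer cells that express a gene and less RNA per cell cannot be told apart.

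The strains did not overlap for 19 members, for all 11 with higher means and for 8 with lower means, while 9.92% of all spots had strains that did not overlap (5.41% with higher and 4.51% with lower means). That is 70.4% of the members, against 600 of the 754 other named table spots (79.6%), so nothing particular to the members is read from it. The plot of each array's deviation from the wild-type mean shows this order.

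**Figure D1:**
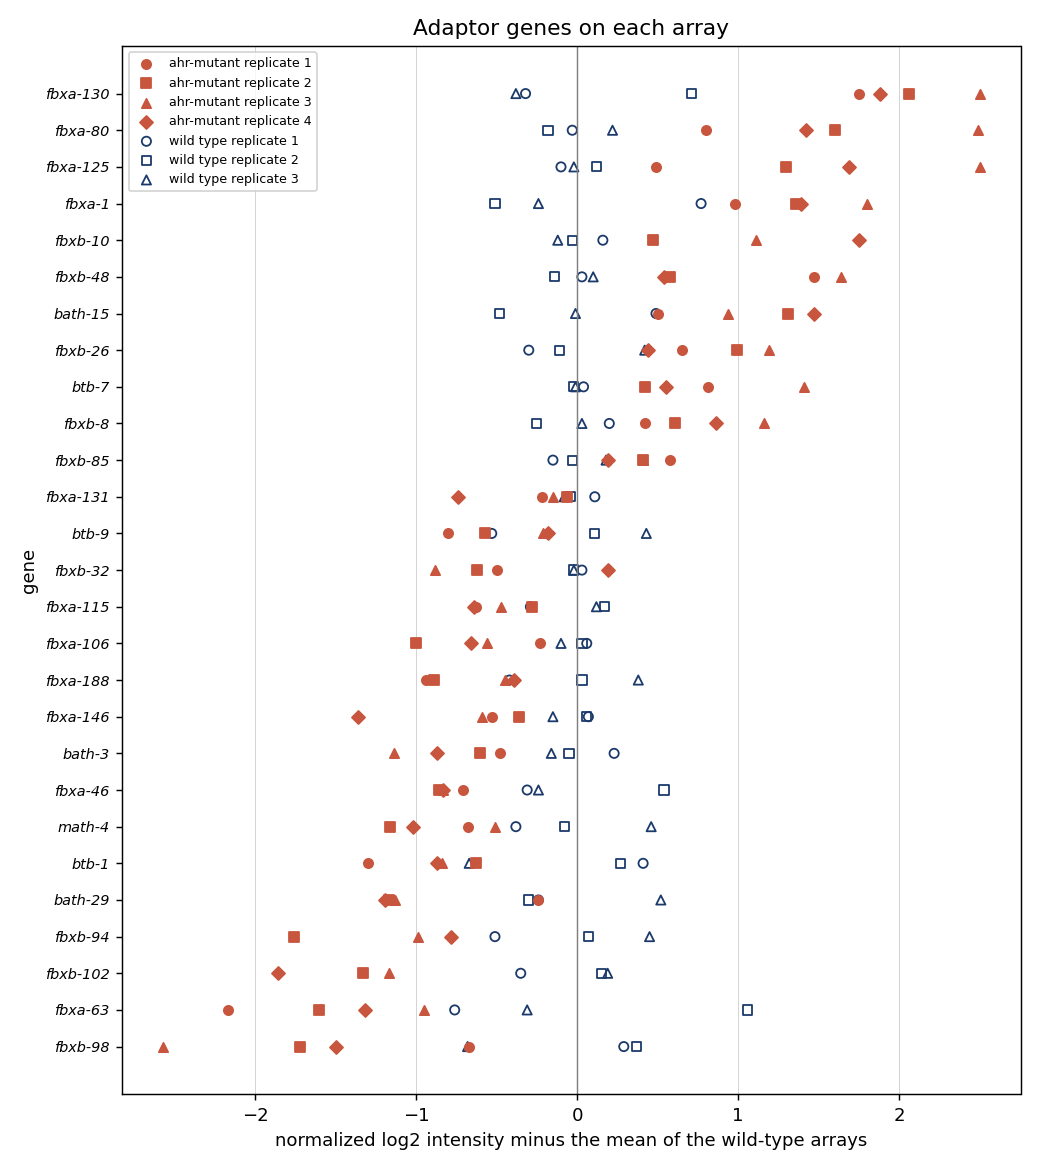
Normalized log2 intensity on each array, minus the mean of the 3 wild-type arrays, for the 27 genes, ordered by log2 difference. Filled symbols are the 4 ahr-mutant arrays and open symbols the 3 wild-type arrays; for the 11 genes at the top every mutant array lies above every wild-type array.

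The fbxa genes encode F-box proteins of the A family, which in the worm carry an FTH domain besides the F-box. Of the 11 measured, 4 were higher and 7 lower on average in the mutants, with a family median log2 difference of -0.50. fbxa-130 had the largest difference of all members. Its normalized log2 intensities were 19.49, 19.80, 20.24 and 19.62 on the ahr-mutant arrays, against 17.42, 18.45 and 17.36 on the wild-type arrays. Every mutant array was higher than every wild-type array, of which replicate 2 was the highest. The mutants were 4.12-fold higher (log2 difference 2.04 ± 0.39, SE; limma adjusted p = 0.221). An exact permutation test gave p = 0.0286, the lowest value that the 35 splits of 7 arrays allow. This value was reached by 6 members, and without a share over all spots the count is not read as a result about them.

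fbxa-80 had 16.29, 17.09, 17.98 and 16.91 on the ahr-mutant arrays, against 15.46, 15.31 and 15.71 on the wild-type arrays. The strains were apart, with replicate 3 the highest and replicate 1 the lowest of the mutants. The strain means lay 2.98-fold apart (log2 difference 1.58 ± 0.42, SE; limma adjusted p = 0.459). An adjustment for slide position, described later, subtracted from each array the median deviation of the surrounding spots from their spot means. With it the difference of fbxa-80 was 0.77 ± 0.32 (SE).

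fbxa-125 had 18.86, 19.67, 20.87 and 20.06 on the ahr-mutant arrays, against 18.27, 18.49 and 18.35 on the wild-type arrays. The mutants spread widely (SD 0.84, n = 4) and the wild-type arrays little (SD 0.11, n = 3), and the strains did not overlap. The log2 difference was 1.5 ± 0.46 (SE; limma adjusted p = 0.551). fbxa-1 had 17.09, 17.47, 17.91 and 17.50 on the ahr-mutant arrays, against 16.88, 15.60 and 15.87 on the wild-type arrays. Wild type replicate 1 lay close below the mutants and the other wild-type arrays were clearly lower. The log2 difference of fbxa-1 was 1.38 ± 0.40 (SE; limma adjusted p = 0.508), and 0.68 ± 0.32 after that adjustment.

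Among the fbxa genes with lower means, fbxa-63 had the smallest p. It had 16.00, 16.57, 17.22 and 16.85 on the ahr-mutant arrays, against 17.41, 19.23 and 17.86 on the wild-type arrays. The strains did not overlap, and wild type replicate 2 stood well above the rest. The log2 difference was -1.51 ± 0.49 (SE; limma adjusted p = 0.567). fbxa-131 was at the other end, with the largest p of all members. Its intensities were 14.75, 14.91, 14.82 and 14.23 on the ahr-mutant arrays, against 15.08, 14.93 and 14.89 on the wild-type arrays, so the strains overlapped. The log2 difference of fbxa-131 was -0.29 ± 0.32 (SE; limma adjusted p = 0.794).

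fbxa-46, chosen after its values were seen, had nearly the same level in all mutants. It had 16.13, 15.98, 16.01 and 16.01 on the ahr-mutant arrays, against 16.53, 17.38 and 16.60 on the wild-type arrays. The mutant arrays were all lower than the wild-type arrays (SD 0.07, n = 4, in the mutants and 0.47, n = 3, in the wild type). The log2 difference was -0.80 ± 0.33 (SE; limma adjusted p = 0.647). The other fbxa genes with lower means were fbxa-146 (-0.71), fbxa-188 (-0.66), fbxa-106 (-0.61) and fbxa-115 (-0.50).

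The fbxb genes encode F-box proteins of the B family, whose members carry a different F-box associated domain. Of the 9 measured, 5 were higher and 4 lower on average in the mutants, with a family median log2 difference of 0.40. fbxb-102 had no value for ahr-mutant replicate 1, because its spot lay in a segment of that array that conflicted with exact table values and was set aside. It had 16.62, 16.78 and 16.09 on the other ahr-mutant arrays, against 17.60, 18.10 and 18.14 on the wild-type arrays. All mutant values were below all wild-type values, and the spread within each strain was small beside the gap. The mutants were 2.73-fold lower (log2 difference -1.45 ± 0.37, SE; limma adjusted p = 0.459). With the segment that was set aside included, the log2 difference was -1.56 (limma adjusted p = 0.327). An exact permutation test cannot go below the p of 0.10 found here with 3 arrays of each strain. Adjusted for slide position, the difference of fbxb-102 was -1.44 ± 0.31 (SE), and the limma adjusted p of 0.227 was the lowest of the members in that fit. Over the 14 alternatives fitted to the array files, the adjusted p of fbxb-102 lay between 0.227 and 0.90, and with the ratios of the authors' deposited table, adjusted over its rows alone, limma gave 0.00422.

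fbxb-98 had the lowest log2 difference of all members, at -1.61 ± 0.49 (SE; limma adjusted p = 0.537). Its intensities were 16.81, 15.76, 14.91 and 15.98 on the ahr-mutant arrays, against 17.77, 17.85 and 16.80 on the wild-type arrays. The strains overlapped, because ahr-mutant replicate 1 lay level with wild type replicate 3. Without that mutant array they did not overlap and the log2 difference was -1.93. Adjusted for slide position, the difference was -0.95 ± 0.31 (SE) and the strains no longer overlapped. fbxb-94 lacked replicate 1 as well and had 16.72, 17.49 and 17.70 on the other ahr-mutant arrays, against 17.97, 18.55 and 18.93 on the wild-type arrays. The mutants were below the wild type throughout, with a log2 difference of -1.18 ± 0.43 (SE; limma adjusted p = 0.626). With the segment that was set aside included, it was -1.05.

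On the higher side, fbxb-48 had 16.23, 15.34, 16.40 and 15.30 on the ahr-mutant arrays, against 14.79, 14.62 and 14.86 on the wild-type arrays. The mutants formed a higher pair, replicates 1 and 3, and a lower pair, and both were above the wild type. The log2 difference was 1.06 ± 0.38 (SE; limma adjusted p = 0.614). fbxb-10 had 15.93, 16.57 and 17.21 on ahr-mutant replicates 2, 3 and 4, against 15.62, 15.43 and 15.34 on the wild-type arrays. Again the strains were apart, with a log2 difference of 1.10 ± 0.42 (SE; limma adjusted p = 0.632). Replicate 1 was not placed for fbxb-10, but in the authors' deposited table the gene has a ratio of 1.30 on that array. Read at the position that this ratio gives, replicate 1 had 16.28 and the log2 difference was 1.03. The remaining fbxb genes were fbxb-26 (0.81), fbxb-8 (0.77) and fbxb-85 (0.40), higher in the mutants, and fbxb-32 (-0.45), lower. Adjusted for slide position, the difference of fbxb-32 was 0.03. Their limma adjusted p lay between 0.654 and 0.716 for the 3 with higher means, and with fbxb-32 and the 5 fbxa genes named just before this family it lay between 0.647 and 0.72.

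The btb genes encode BTB-domain proteins without a MATH domain, the kind that can bridge CUL-3 to a substrate. Of 3 measured, btb-7 had a higher mean in the mutants, and btb-1 and btb-9 had lower means. btb-7 had 16.03, 15.64, 16.63 and 15.77 on the ahr-mutant arrays, against 15.26, 15.20 and 15.21 on the wild-type arrays. The wild-type arrays were nearly equal and all mutants were above them. The log2 difference of btb-7 was 0.80 ± 0.34 (SE; limma adjusted p = 0.657). Adjusted for slide position, it was 0.35 ± 0.28 (SE) and the strains overlapped.

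btb-1 had 13.75, 14.42, 14.21 and 14.18 on the ahr-mutant arrays, against 15.46, 15.32 and 14.38 on the wild-type arrays. The strains overlapped, since wild type replicate 3 lay below ahr-mutant replicate 2. Its log2 difference was -0.91 ± 0.37 (SE; limma adjusted p = 0.645), and -0.94 ± 0.38 once adjusted for slide position. btb-9 had 18.35, 18.58, 18.94 and 18.97 on the ahr-mutant arrays, against 18.62, 19.26 and 19.58 on the wild-type arrays. These overlapped too, and the log2 difference of -0.44 ± 0.36 (SE; limma adjusted p = 0.729) was about as large as its error.

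The bath genes encode proteins with both a BTB and a MATH domain, as does MEL-26, the substrate receptor of a CUL-3 ligase in the worm embryo. bath-15 had 16.17, 16.98, 16.61 and 17.14 on the ahr-mutant arrays, against 16.16, 15.19 and 15.66 on the wild-type arrays. The strains did not overlap, but the lowest mutant and the highest wild-type array were almost level. Its log2 difference of 1.05 ± 0.38 (SE; limma adjusted p = 0.617) was 0.19 ± 0.31 once adjusted for slide position, the largest reduction of any member.

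bath-3 had 17.45, 17.33, 16.79 and 17.06 on the ahr-mutant arrays, against 18.16, 17.88 and 17.77 on the wild-type arrays. All mutants were lower, with a log2 difference of -0.78 ± 0.32 (SE; limma adjusted p = 0.647). Adjusted for slide position, the difference was -0.50 ± 0.29 (SE) and the strains overlapped. bath-29 had 17.13, 16.20, 16.24 and 16.18 on the ahr-mutant arrays, against 17.13, 17.07 and 17.89 on the wild-type arrays. Replicate 1 stood among the wild-type values while the other 3 mutants were close together below them. The log2 difference of bath-29 was -0.93 ± 0.38 (SE; limma adjusted p = 0.647). Without replicate 1 it was -1.16, and the strains did not overlap. Adjusted for slide position with all arrays, it was -0.36 ± 0.27 (SE), and the strains did not overlap either. The single math gene, math-4, encodes a protein with a MATH domain, the substrate-binding fold. It had 14.85, 14.37, 15.02 and 14.51 on the ahr-mutant arrays, against 15.15, 15.45 and 15.99 on the wild-type arrays. The mutants were lower throughout, with a log2 difference of -0.84 ± 0.35 (SE; limma adjusted p = 0.647).

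The authors' deposited table gives a ratio for ahr-mutant replicate 1 in all 11 members with higher means and in none of the 16 with lower means. The same held for 294 of the 295 other named table spots with higher means and 0 of the 459 with lower means, so the values of replicate 1 given here for members with lower means come from the array file alone. The 2 members without a spot of their own, fbxb-103 and fbxa-218, have ratios in the authors' deposited table that repeat those of another gene's row. For fbxb-103 the ratios are 0.80, 0.647 and 0.912 in ahr-mutant replicates 2, 3 and 4, against 2.74, 1.63 and 1.04 in the wild type, and the row of the receptor gene srb-11 holds the same 6 values. For fbxa-218 they are 0.83, 0.734 and 1.00 in these mutants, against 1.88, 1.32 and 1.15 in the wild type, and the row of sru-1 repeats them. All mutant ratios were below all wild-type ratios in both rows, but which of the paired genes the signal belongs to cannot be told apart. In all, 210 rows of the table were unmatched in this way, and each repeats the ratios of another row.

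Other genes of the ubiquitin pathway were sought in 6 lists of cullins, ubiquitin-activating and ubiquitin-conjugating enzymes, conserved substrate receptors, proteasome subunits, deubiquitinating enzymes and the pals family. These lists gave 4 named rows, of which 3 had a spot of their own, 1 with a higher and 2 with lower means in the mutants. None passed in limma over all spots. All 3 had an unadjusted p under 0.05, as did 63.1% of the other named table spots, so this count says little about the pathway. cul-3, which encodes the cullin that BTB proteins bind, had 15.51, 15.39, 14.82 and 15.49 on the ahr-mutant arrays, against 16.10, 16.29 and 15.84 on the wild-type arrays. The mutants were all lower, with a log2 difference of -0.77 ± 0.33 (SE; limma adjusted p = 0.654). Adjusted for slide position, the difference of cul-3 was -0.32 ± 0.31 (SE) and the strains overlapped.

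uba-5, which encodes the activating enzyme of the ubiquitin-like modifier UFM1, had 17.94, 18 and 18.04 on ahr-mutant replicates 2, 3 and 4, against 18.65, 18.81 and 19.63 on the wild-type arrays. The mutants were close together and lower (log2 difference -1.04 ± 0.39, SE; limma adjusted p = 0.628). Adjusted for slide position, the difference of uba-5 was -0.58 ± 0.35 (SE), and the strains did not overlap. pas-7, which encodes an alpha subunit of the proteasome core, had 17.28, 16.66, 18.09 and 16.62 on the ahr-mutant arrays, against 15.97, 15.87 and 15.63 on the wild-type arrays. It was higher in every mutant, by 1.34 ± 0.42 on the log2 scale (SE; limma adjusted p = 0.561), and after adjustment for slide position by 0.70 ± 0.29.

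The direction of the members followed where their spots lie on the slide. The layout of the array, 12 slide rows of 4 blocks, was inferred, and all values adjusted for slide position rest on it. The spots that are not in the deposited table had median log2 differences between -0.44, in slide row 1, and 0.50, in slide row 12. All 14 members in slide rows 1 to 7 had lower means in the mutants, while 11 of the 13 in slide rows 8 to 12 had higher means. Over the 27 members, which share the arrays and this drift, the rank correlation of log2 difference and slide row was 0.67, given as a description. Adjusted for slide position, this correlation was 0.56, while the median of spots outside the deposited table lay between -0.01 and 0.05 in each slide row. The correlation was not computed for the other named table spots, and what lies behind the remainder was not tested. The 754 other named table spots split by position too. In slide row 11 all 69 of them were higher in the mutants, and in slide row 1, 58 of 59 were lower.

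**Figure D2:**
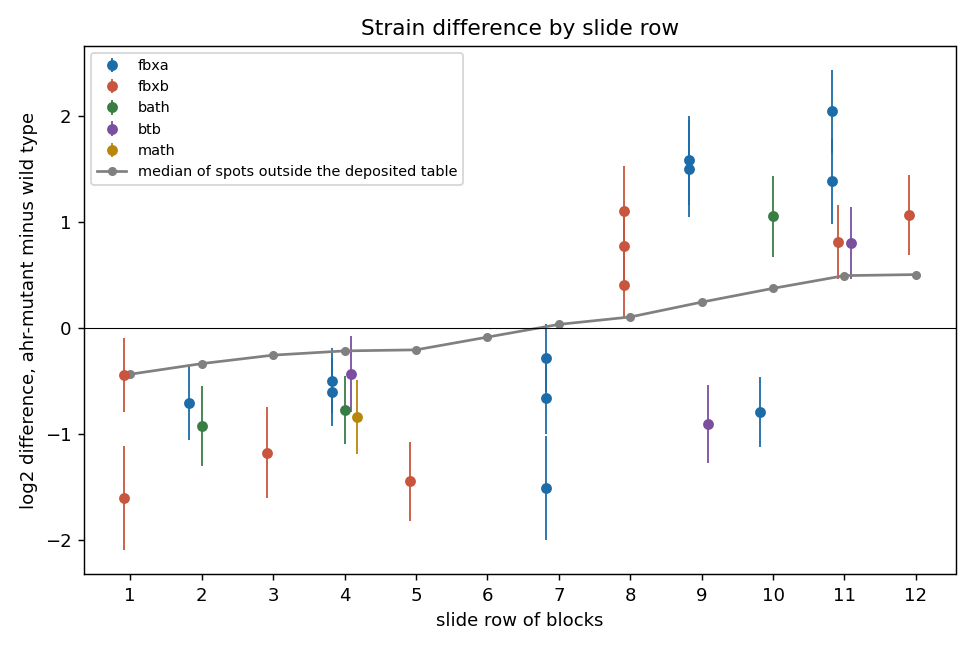
Log2 difference (ahr-mutant minus wild type) of the 27 genes against the slide row of blocks in which their spot lies, coloured by family, with standard errors as bars; the grey line is the median of spots outside the deposited table in each slide row. The grey line climbs with slide row between -0.44 and 0.50, and all genes in slide rows 1 to 7 lie below 0.

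Among the mutants, replicate 3 drifted most at the spots of the members with higher means. It was the highest mutant array for 8 of the 10 higher members with all 4 mutant values, and for 2 of the 14 such lower members. The same count was not made over other spots, so it is not read as particular to the members. The signal surrounding the 11 higher members deviated from the spot means by a median of 0.45 on replicate 3, against -0.21, -0.50 and -0.33 on the wild-type arrays. After the local position adjustment, replicate 3 was the highest mutant array for 4 of the 10. Without replicate 3 and without the adjustment, 10 of the 27 members had an unadjusted p under 0.05.

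The local position adjustment took from each array the median deviation in a square of 21 by 21 spots of the inferred layout, centred on each spot. With it 26 of the 27 members kept their direction, and fbxb-32 turned. The median absolute log2 difference was 0.59 with the adjustment and 0.84 without it. At an unadjusted p under 0.05, 10 members were found, 4 higher and 6 lower, where 6.59% of all spots did (3.42% higher and 3.18% lower). None passed when adjusted over all spots, as given for fbxb-102. Such a p was found for 37.0% of the members, against 42.2% of the other named table spots. The median over members was -0.18, and over the other named table spots -0.24. The strains did not overlap for 14 members, 5 with higher and 9 with lower means, against 9.11% of all spots (4.7% and 4.4%). That is 51.9% of the members, against 377 of the 754 other named table spots.

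The adjustment moved the fold by over 1.5 times for 4 members, namely bath-15, fbxa-80, fbxa-1 and fbxb-98. It left fbxb-102 and fbxa-188 nearly as they were. With it fbxa-130 had a log2 difference of 1.52 ± 0.34 (SE; limma adjusted p = 0.24), and fbxa-125 had 1.27 ± 0.31 (SE). The adjusted p of fbxa-130 lay between 0.225 and 0.577 over the alternatives fitted to the array files, and limma gave 0.00293 with the ratios of the authors' deposited table, adjusted over its rows alone. btb-1 and fbxa-46 were the members with lower means in slide rows 8 to 12. The log2 difference of the surrounding spots was 0.26 for fbxa-46 but only 0.02 for btb-1. Theirs were the log2 differences that became larger in size with the adjustment, that of btb-1 barely. For fbxa-46 the difference was then -1.06 ± 0.31 (SE), with all mutant arrays still below the wild type. For btb-1 the strains still overlapped.

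**Figure D3:**
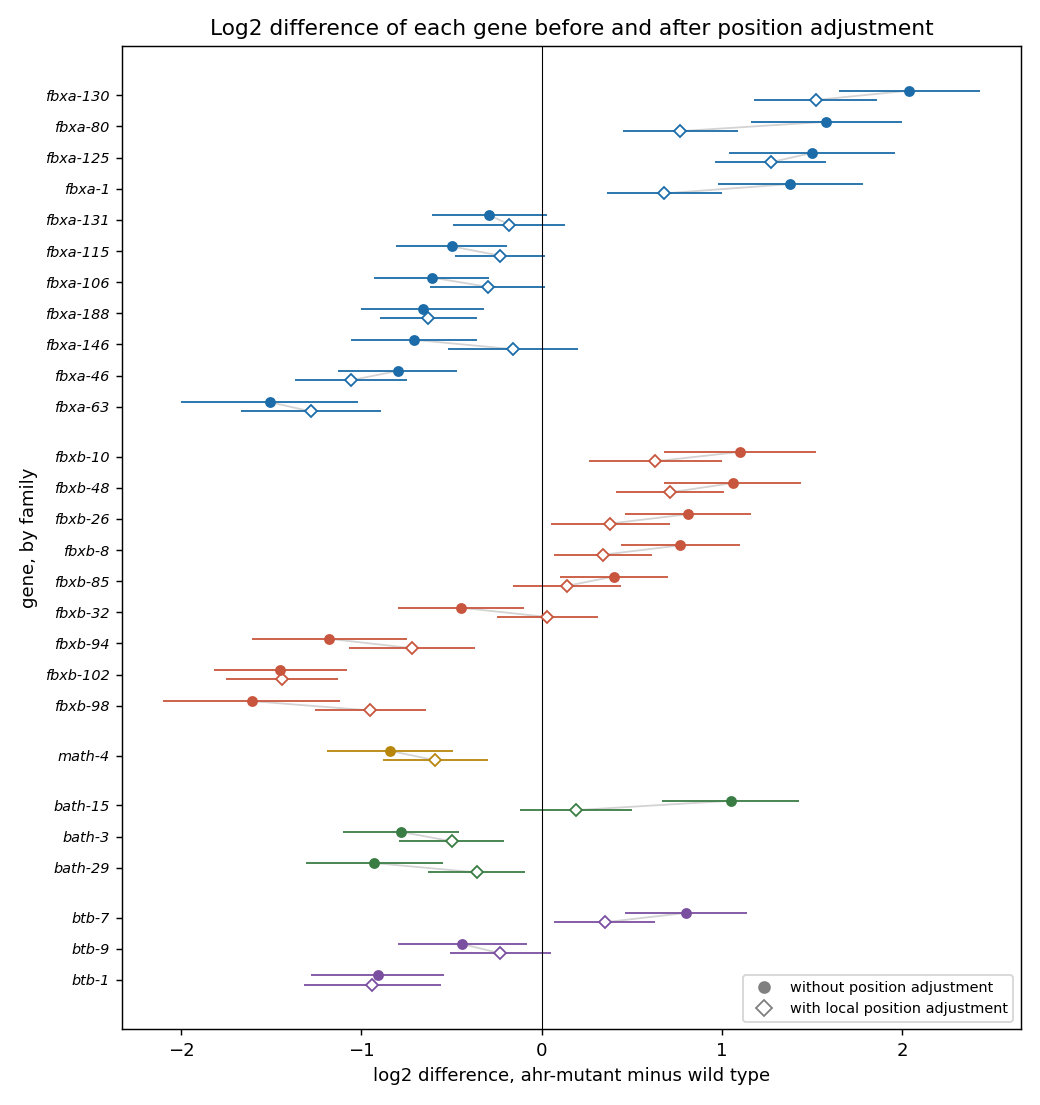
Log2 difference (ahr-mutant minus wild type) of each gene, by family, without (filled circle) and with (open diamond) the local position adjustment; bars are standard errors. Most diamonds lie nearer 0 than their circles, as for bath-15 at 0.19 against 1.05, while those of fbxb-102 nearly coincide and that of fbxa-46 lies farther out.

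By the WBcel235 gene table, 13 of the 29 members lie on chromosome II, 7 on III, 4 on V, 3 on I and 1 each on IV and X. On chromosome II, 4 measured members had higher and 8 lower means. btb-7 and fbxb-48, both higher in the mutants, have 1 protein-coding gene between them, and btb-9, which had a lower mean, is 4 genes from fbxb-48. math-4, lower in the mutants, and fbxb-10, higher, have 6 genes between them. fbxa-63, lower, and fbxa-80, higher, have 18. The spots of these pairs that differ in direction also lie in different slide rows, 4 and 12 for btb-9 and fbxb-48, 4 and 8 for math-4 and fbxb-10, and 7 and 9 for fbxa-63 and fbxa-80. Those of btb-7 and fbxb-48 lie in slide rows 11 and 12. The other pairs with up to 20 genes between them went both ways. The same direction was seen for btb-7 and fbxb-26 (10 genes), fbxb-26 and fbxb-48 (12), and math-4 and btb-9 (20). Opposite directions were seen for btb-9 and btb-7 (6 genes), fbxb-98 and fbxb-10 (14), and btb-9 and fbxb-26 (17). The probe sequences were not used here, so whether close relatives in these families bind the same spot was not tested.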

How the data were processed

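The authors' deposited array files give 1 intensity per spot on a linear scale. No source used here states the scanner, the background treatment or the probe sequences. The authors' deposited value table holds a ratio per row and array. Its rows were matched to spots by value within 0.0001 on the log2 scale, which matched 1080 of 1290 rows, 27 of them sharing a spot. Spots that were blank, 0 or negative counted as missing.

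The log2 intensities were quantile normalized. The rows of ahr-mutant replicate 1 were then put back by aligning its signals to the other arrays along an inferred printing order. Segments shorter than 100 spots or correlated below 0.7 were dropped, the rest were kept less 10 spots at each end, and 1 more that conflicted with exact table values was set aside. All 343 known positions inside placed spots were found again, although the known positions chose which segment to leave out.

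limma 3.58.1 in R 4.3.3 compared 4 mutant with 3 wild-type arrays over 22515 spots with at least 2 values in each strain, with Benjamini-Hochberg adjustment over all spots. Placement and fit were tested on simulated data. Of 50 simulated spots each, changed by 1, 2, 3 or 4 on the log2 scale, 0, 19, 28 and 43 passed the adjusted threshold. A real difference of the size seen in most members would thus often be missed. Single genes had an exact two-sided permutation test. The number of arrays limits the precision. Genes named with values are the 12 of smallest p, the 2 of smallest p in each family, all btb and bath genes and the gene of largest p. The members, lists and tests were chosen with earlier results of these data known. Gene symbols come from the platform annotation, and all 961 matched the WBcel235 gene table.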

Additional observations from a re-analysis of the deposited data

Results flagged for a closer look

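In 26 genes with 4 mutant values each, the lowest and highest mutant array were checked for standing apart, which chance alone gives in about 1 of 20 sets. This happened once, for bath-29, where replicate 1, at 17.13 on the log2 scale, exceeded the other mutant arrays by 0.937 of the whole range. The authors' deposited table gives no ratio of bath-29 on that array, as for all members with lower means. Adjusted for slide position, bath-29 had 16.72, 16.63, 16.69 and 16.60 on the ahr-mutant arrays. The wild-type arrays had 16.80, 16.95 and 17.31, and ahr-mutant replicate 1 no longer stood apart from the other mutants.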

How the results depend on the processing

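The count of spots past the adjusted threshold was 2, and it was also 2 with the local position adjustment and with block medians subtracted. With the local adjustment they were not the same 2 spots. The count was 0 with median scaling, quantile normalization after placing replicate 1, normexp, or all segments placed. It was also 0 with the dimmest 20% or any 1 array left out. It was 1090 of 1290 rows with the deposited ratios, taken from these same arrays. The 19 members at an unadjusted p under 0.05 became 10 with the local position adjustment, 9 with block medians subtracted, 12 without the dimmest spots (23 members tested), and 7 to 14 with 1 array left out, lowest without wild type replicate 2. With the deposited ratios 25 of the 30 single genes also passed when adjusted over the table's rows. The adjustment without ahr-mutant replicate 1 or 3, chosen after seeing the data, gave 7 in each case. Median scaling gave 17, normexp 14 and the deposited ratios 25 of 29. The members' median lay between -0.61 and -0.15 under the alternatives, and between -0.58 and -0.40 with 1 array left out. fbxb-32 turned to 0.03 with the local adjustment and 0.23 with block medians, and fbxb-85 to -0.02 with block medians, and the cause was not tested. No other gene's direction turned. Family medians moved to -0.36 (local adjustment) and -0.37 (block medians) for bath, -0.08 (block medians) and 0.18 (without the dimmest spots, where btb-1 was not tested) for btb, -1.65 (normexp) for math, and -0.21 (deposited ratios, which include fbxb-103) for fbxb. No member passed over all spots in any fit of the array files. No paired analysis was possible because the labels give no replicate number that the strains share.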
